A study of Mus musculus with 27 samples.

Results

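Genes of proteins that the yolk sac endoderm secretes or takes up were followed through the differentiation of 3 mouse pluripotent cell lines. The set named 10 genes: the plasma carrier genes Afp, Ttr, Rbp4 and Trf, the apolipoprotein genes Apob, Apoc2, Apoa1 and Apoa4, and Amn and Cubn, which encode the parts of an endocytic receptor. A gene was included where a probe set of the array carried its symbol and no other. This gave 22 of 45101 probe sets and 9 of the 10 genes, among 18193 genes in all. Trf had no probe set of its own and was not measured here. R1 is a line of embryonic stem cells. The other lines, 3F (H9) and 4F (19BL), are induced pluripotent stem cells, which were reprogrammed with 3 or 4 factors. Undifferentiated cells (day 0) grew with LIF on a layer of inactivated feeders. Embryoid bodies, aggregates in which cells differentiate without a directing factor, were kept in serum medium without LIF to day 5 or day 11. With 3 biological replicates for every line and day there were 9 groups and 27 arrays, a number that limits the precision. The study's title concerns how well such lines can form heart cells. The lines stand for single cell lines of each kind, and an embryoid body is a mixture of tissues.

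The yolk sac is the first organ to make plasma proteins in the embryo, before the liver takes over this work. Its visceral endoderm, an epithelium that covers the early embryo and lines the yolk sac, takes up maternal proteins and lipids from its surroundings through endocytic receptors and releases carrier proteins and lipoproteins towards the embryo. In embryoid bodies such an epithelium can form at the surface. The same genes are also active in fetal and adult liver, intestine, kidney or choroid plexus, so their signal alone does not name a cell type.

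Values are log2 signals, in which a step of 1 is a 2-fold difference. The words rose, fell and higher stand only for differences of 2-fold or more whose adjusted p, in the limma fit over all genes, was under 0.05, and the error after ± is the standard error of that fit. The median signal of an array lay between 5.91 and 6.10. No background call was used. A fold against a group with signals near or under 5.38, the 40th percentile of all values, is thus best read as a lower bound. This touches Ttr, Afp, Apob, Apoc2 and Cubn at day 0. It also touches groups of later days, such as Apoc2 in R1 and 3F and Apob in R1 at day 11. An RNA quality index was taken as the 3' signal minus the 5' signal at the Actb and Gapdh controls, and a high value goes with shortened transcripts. It peaked in 4F embryoid bodies of day 11 at 2.69 ± 0.23 (log2 units, SD, n = 3). On that day R1 stood at 1.94 ± 0.20 and 3F at 1.55 ± 0.23, and the day 0 groups ranged from 1.09 ± 0.07 to 1.45 ± 0.26. This index is set beside the results of 4F at day 11 below. As a covariate it was fitted beside a mean for each group, so its slope came only from differences between arrays of a group. Those were small (SD of 0.07 to 0.34) beside the step from 1.31 to 2.69 between 4F at day 0 and day 11. Values of 4F with the covariate thus reach beyond the spread it was fitted on. Whether RNA quality caused a difference was not tested. In bulk RNA, fewer cells of a type and less RNA per cell cannot be told apart.

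The promoters of 8 of the 9 genes were taken from the RefSeq table of the mouse build GRCm38.p6, each as a window of 300 bases. This gave 9 windows in all because Rbp4 has a pair of starts. No window of Ttr was used, so the search below does not cover that gene. Windows are shown for Afp and Rbp4, which rose in all 3 lines, and for Apob and Apoc2, which set 4F apart from R1 at day 11. Of the pair for Rbp4 only the upstream window is shown, and the other held 0 matches to the letters below. Capitals mark letters that were searched for on both strands and that do not overlap here. The letters GTTAAT stand for part of the sites of HNF1 factors. For HNF4 the letters searched were CAAAGTC, and for FOXA factors they were TGTTTAC. The site of GATA factors was searched as AGATAA.
Afp promoter, chr5:90490464-90490763, plus strand: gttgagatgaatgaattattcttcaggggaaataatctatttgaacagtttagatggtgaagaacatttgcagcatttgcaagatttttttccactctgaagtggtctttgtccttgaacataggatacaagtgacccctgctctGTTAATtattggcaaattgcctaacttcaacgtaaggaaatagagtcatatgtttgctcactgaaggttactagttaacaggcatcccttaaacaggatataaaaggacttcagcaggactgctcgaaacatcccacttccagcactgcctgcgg
Rbp4 promoter of the upstream start, chr19:38125272-38125571, minus strand: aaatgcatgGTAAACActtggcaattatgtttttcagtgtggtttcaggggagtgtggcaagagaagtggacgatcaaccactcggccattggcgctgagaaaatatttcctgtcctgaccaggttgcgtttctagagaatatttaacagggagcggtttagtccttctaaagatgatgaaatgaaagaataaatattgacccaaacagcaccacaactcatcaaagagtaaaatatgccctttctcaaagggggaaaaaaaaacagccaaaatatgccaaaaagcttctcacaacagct
Apob promoter, chr12:7977427-7977726, plus strand: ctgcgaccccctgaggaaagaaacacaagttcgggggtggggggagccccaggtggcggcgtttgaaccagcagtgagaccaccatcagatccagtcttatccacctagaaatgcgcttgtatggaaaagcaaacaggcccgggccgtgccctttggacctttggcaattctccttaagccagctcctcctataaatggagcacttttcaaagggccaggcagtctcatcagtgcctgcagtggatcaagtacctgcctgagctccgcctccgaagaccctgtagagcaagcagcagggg
Apoc2 promoter, chr7:19677892-19678191, minus strand: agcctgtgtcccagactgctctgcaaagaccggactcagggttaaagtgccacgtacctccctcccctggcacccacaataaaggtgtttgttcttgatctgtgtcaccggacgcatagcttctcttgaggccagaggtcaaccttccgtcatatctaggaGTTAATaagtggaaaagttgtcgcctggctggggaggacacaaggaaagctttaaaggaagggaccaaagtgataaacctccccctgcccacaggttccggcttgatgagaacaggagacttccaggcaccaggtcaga
The HNF1 letters were found in the windows of Afp, beginning 105 bases before the start, and of Apoc2, 89 bases before it. Of all 32851 promoter windows of this length, 7.1% held them. The FOXA letters were found in the upstream Rbp4 window, on the opposite strand, and in 3.65% of all windows. The HNF4 letters (4.44% of all windows) and the GATA letters (11.2%) were in 0 of the 9 windows, which says only that these exact letters are not in these bases. Other forms of these sites, those of HNF1 and FOXA included, were not searched for, so unmarked bases may hold them.

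Afp encodes alpha-fetoprotein, the main plasma protein of the fetus and a classical product of yolk sac endoderm. Its log2 signal in R1 was 5.31, 5.80 and 5.67 at day 0, 5.62, 6.07 and 5.60 at day 5, and 12.37, 12.10 and 10.36 at day 11. In 3F it was 5.36, 5.33 and 4.99 at day 0, 5.54, 5.62 and 5.50 at day 5, and 11.80, 12.64 and 10.91 at day 11. In 4F it was 5.17, 5.50 and 5.24 at day 0, 6.39, 6.56 and 7.04 at day 5, and 10.32, 10.48 and 10.54 at day 11. Every day 11 array was thus far above every array of the earlier days, and in 3F and 4F the day 5 arrays also lay above all day 0 arrays of the line. From day 0 to day 11 Afp rose by 6.01 ± 0.38 in R1 (64.6-fold, limma adjusted p = 8.45e-11), by 6.56 ± 0.38 in 3F (94.2-fold, 2.13e-11) and by 5.15 ± 0.38 in 4F (35.4-fold, 9.39e-10). The rise in 4F was 3.35 with the RNA index as a covariate and passed. At day 5 Afp had risen in 4F by 1.36 ± 0.38 (adjusted p = 0.0117). This call, at the brightest probe set, ended without day 5 replicate 3 (1.18) and with the RNA index as a covariate (0.96). The change was 0.16 ± 0.38 in R1 and 0.33 ± 0.38 in 3F. Day 5 signals of other Afp probe sets in 4F are given below.

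**Figure D1:**
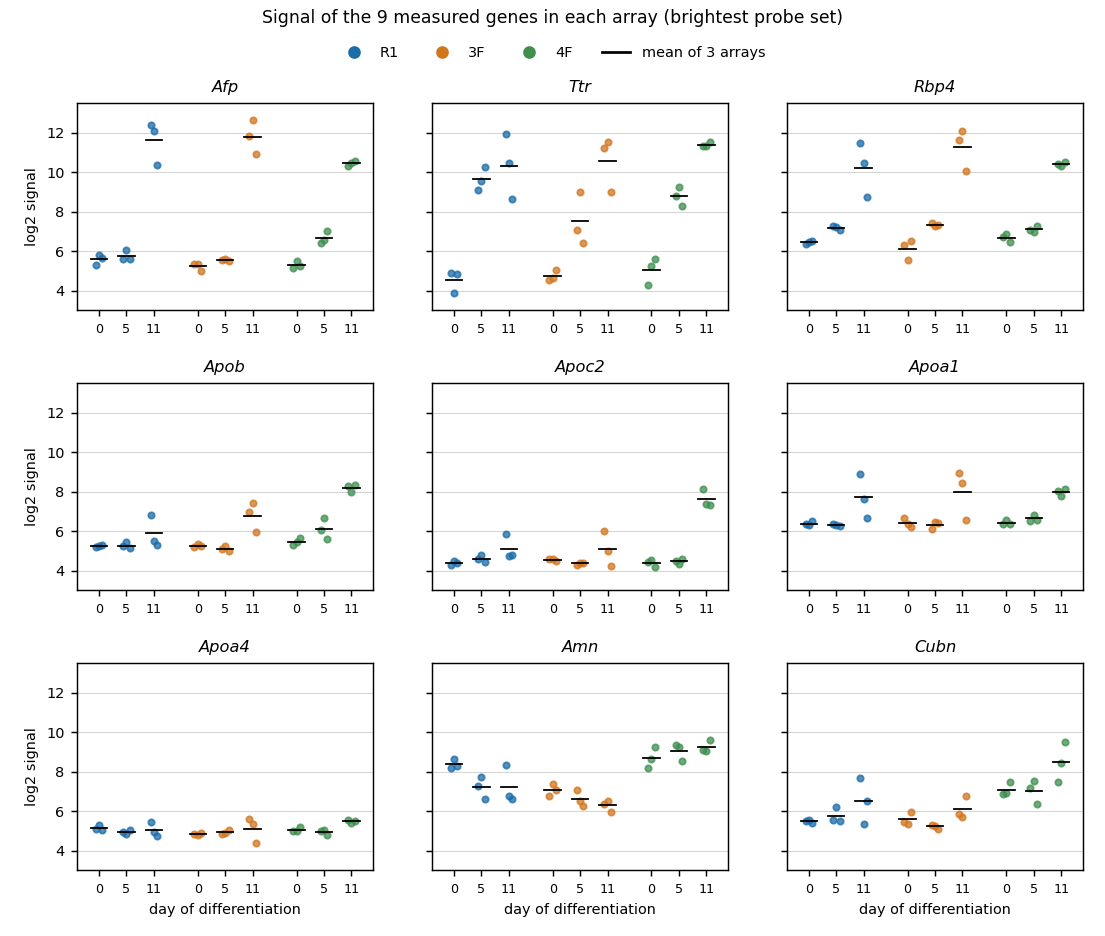
Log2 signal of the brightest probe set of each measured gene (vertical axis) in every array, by day of differentiation (horizontal axis) within R1, 3F and 4F, with the mean of 3 arrays as a bar. Afp, Ttr and Rbp4 were high at day 11 in all 3 lines, Apoc2 and Apob were highest in 4F at day 11, and Amn was higher in 4F than in 3F on every day.

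Ttr encodes transthyretin, which carries thyroid hormone and binds the retinol-binding protein in plasma. It had risen by day 5 in all 3 lines: the log2 signal in R1 was 4.88, 3.88 and 4.83 at day 0, 9.11, 9.55 and 10.27 at day 5, and 11.93, 10.45 and 8.61 at day 11. In 3F it was 4.53, 4.66 and 5.04, then 7.09, 9.01 and 6.42, then 11.22, 11.54 and 8.97 on the same days. In 4F it was 4.31, 5.23 and 5.62, then 8.77, 9.27 and 8.30, then 11.33, 11.31 and 11.54. All day 5 arrays were above all day 0 arrays in each line. By day 5 Ttr had risen by 5.11 ± 0.70 in R1 (34.6-fold, adjusted p = 6.12e-06), 2.76 ± 0.70 in 3F (0.00387) and 3.73 ± 0.70 in 4F (0.000503). By day 11 the rise from day 0 was 5.80 ± 0.70 in R1, 5.83 ± 0.70 in 3F and 6.34 ± 0.70 in 4F (55.7-fold, 57.0-fold and 81.2-fold; adjusted p of 4.65e-07, 3.49e-07 and 1.6e-07). Between day 5 and day 11 Ttr rose in 3F by 3.07 ± 0.70, with overlapping groups, and in 4F by 2.62 ± 0.70 (1.44 with the RNA index as a covariate, which did not pass), and in R1 the difference was 0.69 ± 0.70 (adjusted p = 0.55). In the order of its 9 group means the day 11 groups stood above the day 5 groups and these above the day 0 groups, but only the step from 3F at day 5 to 4F at day 0 separated neighbours without overlap.

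Rbp4 encodes the plasma carrier of retinol, the transport form of vitamin A. Its log2 signal was 6.34, 6.46 and 6.51 in R1 at day 0, 7.25, 7.22 and 7.07 at day 5, and 11.45, 10.47 and 8.72 at day 11. In 3F it was 6.29, 5.56 and 6.49, then 7.41, 7.26 and 7.33, then 11.65, 12.10 and 10.03. In 4F it was 6.72, 6.88 and 6.45, then 7.09, 6.98 and 7.27, then 10.41, 10.29 and 10.53. In each line the 3 days did not overlap, and the larger step came between day 5 and day 11. From day 0 to day 11 Rbp4 rose by 3.77 ± 0.46 in R1 (13.7-fold, adjusted p = 5.97e-07), 5.15 ± 0.46 in 3F (35.4-fold, 5.76e-09) and 3.73 ± 0.46 in 4F (13.3-fold, 7.73e-07, but 1.79 and not passing with the RNA index as a covariate). The early change at day 5 passed the test in 3F (1.22 ± 0.46, adjusted p = 0.0494), where the call was lost without any single array of the 6 compared, and was 0.74 ± 0.46 in R1 and 0.43 ± 0.46 in 4F.

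Of the 4 apolipoprotein genes, Apob and Apoc2 differed between 4F and the other lines at day 11, and Apoa1 and Apoa4 did not pass between any lines. Apob encodes the large structural protein on which very low density lipoproteins and chylomicrons are built. Its log2 signal stayed between 4.99 and 5.67 in every day 0 array and in the day 5 arrays of R1 and 3F, and it was 6.06, 6.67 and 5.62 in 4F at day 5. At day 11 it was 6.84, 5.53 and 5.29 in R1, 6.95, 7.44 and 5.97 in 3F and 8.29, 7.96 and 8.32 in 4F. The 3 arrays of 4F were above all others, and R1 overlapped its own day 0. From day 0 to day 11 Apob rose by 2.72 ± 0.32 in 4F (6.60-fold, adjusted p = 4.63e-07) and by 1.52 ± 0.32 in 3F (2.87-fold, 0.000449), and the change was 0.63 ± 0.32 in R1 (adjusted p = 0.126). The rise in 4F was 1.23 and did not pass with the RNA index as a covariate, and that in 3F was 0.72 with the mean of both probe sets.

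Apoc2 encodes apolipoprotein C-II, the cofactor that switches on lipoprotein lipase. In 4F its log2 signal was 4.44, 4.56 and 4.18 at day 0, 4.49, 4.35 and 4.59 at day 5 and 8.16, 7.37 and 7.34 at day 11. At day 11 it was 5.83, 4.72 and 4.80 in R1 and 6.01, 4.99 and 4.22 in 3F, where replicate 1 was the highest array in both. Apoc2 rose by 3.23 ± 0.31 in 4F (9.36-fold, adjusted p = 2.92e-08), and the change from day 0 was 0.73 ± 0.31 in R1 (adjusted p = 0.0618) and 0.51 ± 0.31 in 3F (0.181). The rise in 4F was 1.85 with the RNA index as a covariate (adjusted p = 0.0297, against a range of 3.31e-12 to 0.0297 over its 17 alternatives).

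Apoa1 encodes the main protein of high density lipoprotein. Its log2 signal lay between 6.09 and 6.83 in all arrays of day 0 and day 5, and at day 11 it was 8.91, 7.64 and 6.69 in R1, 8.96, 8.41 and 6.56 in 3F and 8.02, 7.77 and 8.16 in 4F. The lowest array of 3F at day 11 lay within the range of its day 0. Apoa1 rose by 1.36 ± 0.43 in R1 (adjusted p = 0.0124), 1.55 ± 0.43 in 3F (0.00493) and 1.56 ± 0.43 in 4F (0.00512). None of these passed with the RNA index as a covariate (0.76 in R1, 0.99 in 3F and -0.14 in 4F), and the calls also ended without day 11 replicate 1 in R1 (0.78) and in 3F (1.06). Apoa4, whose product is carried on intestinal lipoproteins, stayed between 4.37 and 5.60 in all 27 arrays at its brighter probe set. The change there from day 0 to day 11 was -0.09 ± 0.21 in R1, 0.24 ± 0.21 in 3F and 0.42 ± 0.21 in 4F (adjusted p of 0.77, 0.356 and 0.111), although the 4F groups of day 0 and day 11 did not overlap. The second Apoa4 probe set, 1436504_x_at, read 4.90, 4.75 and 4.97 in 4F at day 0 and 5.30, 5.86 and 6.08 at day 11, also without overlap, and it changed by 0.47 in R1, 0.41 in 3F and 0.87 in 4F.

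Amn and Cubn encode amnionless and cubilin, which together form the receptor cubam. Cubilin binds many ligands, among them apolipoprotein A-I and the vitamin B12 carrier, and amnionless anchors it in the membrane of visceral endoderm, kidney tubule and intestine. Amn was already high in undifferentiated cells: its day 0 log2 signal was 8.19, 8.65 and 8.30 in R1, 6.79, 7.38 and 7.08 in 3F and 8.17, 8.64 and 9.23 in 4F. At day 5 it was 7.27, 7.73 and 6.63 in R1, 7.05, 6.52 and 6.29 in 3F and 9.36, 9.27 and 8.53 in 4F. At day 11 it was 8.33, 6.75 and 6.62 in R1, 6.39, 6.53 and 5.97 in 3F and 9.09, 9.03 and 9.59 in 4F. In R1 it fell by 1.17 ± 0.37 to day 5 (adjusted p = 0.0162) and by 1.15 ± 0.37 to day 11 (0.014), and both calls were lost without some single arrays, as given in the closing part. The change from day 0 to day 11 was -0.79 ± 0.37 in 3F (adjusted p = 0.0839) and 0.56 ± 0.37 in 4F (0.248), and in 3F it passed with the RNA index as a covariate (-1.41).

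Cubn encodes the ligand-binding part of that receptor. Its log2 signal was 6.86, 6.93 and 7.46 in 4F at day 0, and 5.52, 5.55 and 5.41 in R1 and 5.48, 5.33 and 5.95 in 3F. At day 11 it was 7.49, 8.45 and 9.50 in 4F, 7.67, 5.37 and 6.53 in R1 and 5.85, 5.70 and 6.79 in 3F. All day 0 arrays of 4F lay above those of R1 and 3F, yet the day 0 differences did not pass the test (1.59 ± 0.46 against R1, adjusted p = 0.076; 1.5 ± 0.46 against 3F, 0.0682). Cubn rose in 4F by 1.39 ± 0.46 from day 0 to day 11 (adjusted p = 0.0169). That call was lost without day 11 replicate 3 (0.88), day 0 replicate 1 (1.28) or day 0 replicate 2 (1.32), and with the RNA index as a covariate (1.85). The change was 1.03 ± 0.46 in R1 (adjusted p = 0.0735) and 0.53 ± 0.46 in 3F (0.363).

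Counted over the 9 genes, from day 0 to day 5 Ttr rose and Amn fell in R1, Ttr and Rbp4 rose in 3F, and Ttr and Afp rose in 4F. The shares of all genes that rose or fell were 6.62% and 8.1% in R1, and those that rose were 5.04% in 3F and 2.25% in 4F. From day 0 to day 11, 4 genes rose and 1 fell in R1, 5 rose in 3F and 7 rose in 4F. In the same comparisons 11.4%, 7.55% and 6.72% of all genes rose, and 12.2% fell in R1. The median change of the 9 genes was 1.03, 1.52 and 2.72, and the median of all genes was -0.04, 0.01 and -0.11. The count in 4F was 3 (Afp, Ttr and Apoc2) with the RNA index as a covariate, and the count in R1 was 3 with only the arrays compared. In these fits 4254 and 4261 of all 18193 genes passed in either direction. At unadjusted p values under 0.05 the counts in either direction were 7, 6 and 7 of 9, where 50.5%, 53.6% and 49.5% of all genes were. Between day 5 and day 11, 3 genes rose in R1, 5 in 3F and 7 in 4F (7.1%, 6.16% and 6.66% of all genes rose). The count in 4F was 2 with the RNA index as a covariate, where 3423 of all genes passed in either direction.

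**Figure D2:**
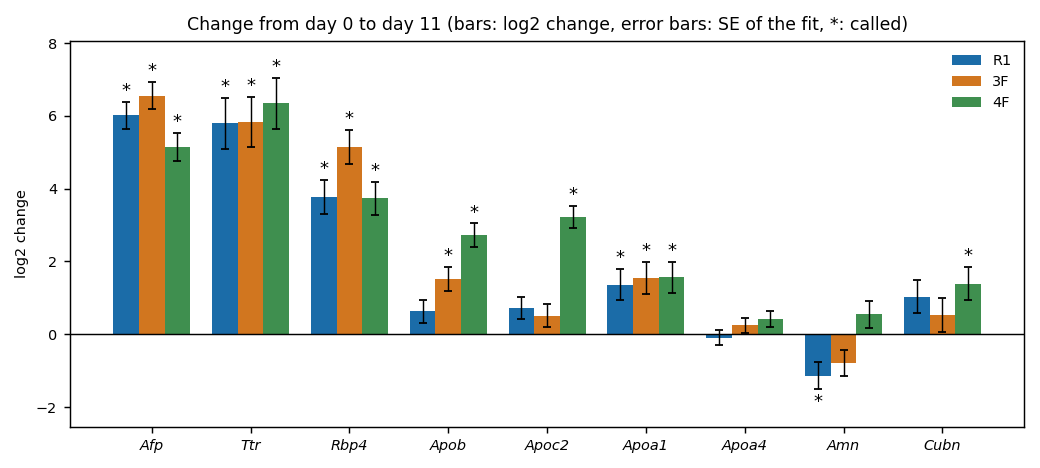
Log2 change from day 0 to day 11 (vertical axis) of each measured gene in R1, 3F and 4F, with standard errors from limma and an asterisk where the change passed the test. Afp, Ttr and Rbp4 rose by 3.73 to 6.56 in all 3 lines, and Apoc2 passed in 4F at 3.23.

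At day 11 the lines were compared directly. Against R1, 4F had more Apoc2 by 2.51 ± 0.31 (5.68-fold, adjusted p = 6.95e-06), Apob by 2.31 ± 0.32 (4.96-fold, 2.88e-05), Amn by 2.0 ± 0.37 (4.01-fold, 0.000415) and Cubn by 1.96 ± 0.46 (3.88-fold, 0.0032), and less Afp, at -1.16 ± 0.38 (0.0271). Thus 4 genes were higher and 1 lower, where 2.39% and 5.92% of all genes were. The groups overlapped at Cubn and Afp. Against 3F the same 4 genes were higher, Amn by 2.94 ± 0.37 (7.70-fold, adjusted p = 6.02e-06), Apoc2 by 2.55 ± 0.31 (4.09e-06), Cubn by 2.37 ± 0.46 (0.000562) and Apob by 1.41 ± 0.32 (0.00233), and Afp was lower, at -1.34 ± 0.38 (0.0104). Of all genes 5.12% were higher and 4.91% lower in that comparison. The pair of comparisons share the 4F arrays. With the RNA index, highest in 4F, as a covariate Apob (1.5), Apoc2 (1.76) and Cubn (2.21) still passed against R1 and Amn (0.97) did not. Against 3F the 4 differences were then at 0.18 (Apob), 1.41 (Apoc2), 1.38 (Amn) and 2.74 (Cubn) and did not pass. The lower Afp was at -2.14 against R1 and -2.82 against 3F in that fit and passed. The lower Afp was called at the brightest probe set. At 1416645_a_at and 1436879_x_at the differences were under 2-fold, as given below. Without the covariate the lower Afp did not pass with the mean of all probe sets (-0.58 and -0.94), which includes dim ones. It also did not pass with only the arrays compared. Against R1 the call ended as well after cyclic loess (-1.04), quantile normalization (-1.02) or without either of 2 R1 arrays or either of 2 4F arrays. Against 3F the Afp call also ended without 3F day 11 replicate 2 (-0.91), and the Apob call without 3F day 11 replicate 3 (1.0) or with the mean of both probe sets (0.59). With only the arrays compared, Cubn against R1 (adjusted p = 0.0817) and Apob against 3F (0.0642) did not pass either.

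Ttr, Rbp4, Apoa1 and Apoa4 did not pass between any pair of lines at day 11. Ttr differed by 1.07 ± 0.70 between 4F and R1 and 0.82 ± 0.70 between 4F and 3F, Rbp4 by 0.20 ± 0.46 and -0.85 ± 0.46, and Apoa1 by 0.24 ± 0.43 and 0.01 ± 0.43. Between 3F and R1, 0 of the 9 genes passed in limma, where 1.02% of all genes did, and 3 had an unadjusted p under 0.05, as did 19.3% of all genes. The differences ran from -0.94 ± 0.37 for Amn, whose groups did not overlap, to 1.05 ± 0.46 for Rbp4 (adjusted p of 0.177 and 0.223). Without 3F replicate 3 Rbp4 (1.66) and Apob (1.31) passed, Apob also without R1 replicate 1 (1.38), and with the RNA index Apob was at 1.33 and passed.

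**Figure D3:**
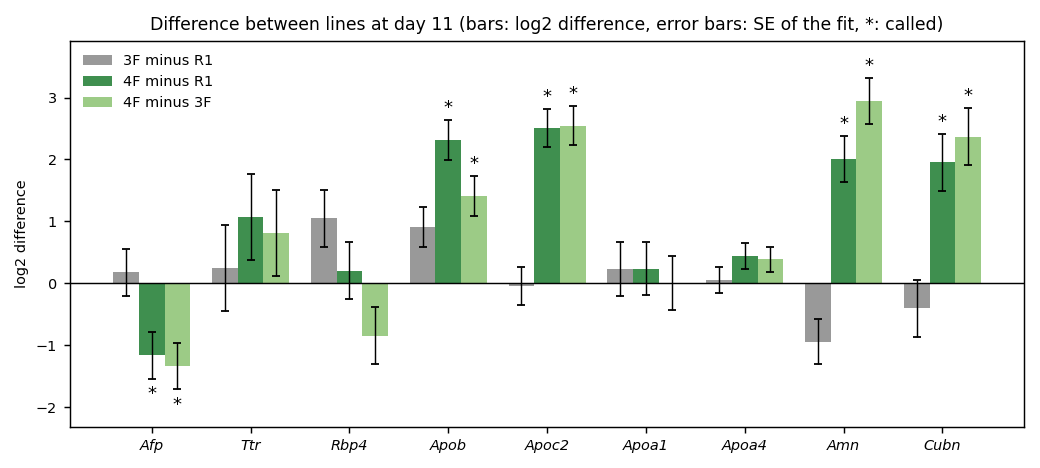
Log2 difference between lines at day 11 (vertical axis) for each measured gene, as 3F minus R1, 4F minus R1 and 4F minus 3F, with standard errors from limma and an asterisk where it passed. At the brightest probe set of each gene, Apob, Apoc2, Amn and Cubn were higher and Afp lower in 4F against each of the other lines.

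The lines were also compared before day 11. At day 0 Amn was lower in 3F than in R1 (-1.30 ± 0.37, adjusted p = 0.0357) and higher in 4F than in 3F (1.60 ± 0.37, 0.0133), the 1 gene of 9 to pass in each comparison (0.879% of all genes were lower and 0.885% higher). Between 4F and R1, 0 of 9 passed in limma, where 1.12% of all genes did in either direction, and 1 had an unadjusted p under 0.05 (13.1% of all genes). The Amn difference of 3F from R1 did not pass with the RNA index (-0.80) or without R1 replicate 2 (-1.16) or 3 (-1.33) or 3F replicate 1 (-1.15) or 3 (-1.29), nor that of 4F from 3F without 3F replicate 1 (1.45) or 3 (1.60) or 4F replicate 2 (1.62) or 3 (1.32). At day 5 Amn was higher in 4F by 1.84 ± 0.37 than in R1 (adjusted p = 0.00179) and by 2.44 ± 0.37 than in 3F (7.77e-05), and Cubn by 1.80 ± 0.46 than in 3F (0.00807). Afp (1.11 ± 0.38, 0.046) and Apob (1.0 ± 0.32, 0.0344) also passed between 4F and 3F at day 5. That made 4 of 9 genes against 3F (2.91% of all genes were higher) and 1 of 9 against R1 (2.31%). The day 5 call of Afp was lost without any single array of the 6 compared, that of Apob without 5 of them, and both with the RNA index as a covariate (Afp 0.43, Apob 0.44). The Cubn call was lost without 4F replicate 2 (1.54). Between 3F and R1 at day 5, 0 of 9 passed in limma (0.374% of all genes did) and 1 had an unadjusted p under 0.05 (8.92% of all genes), with Ttr at -2.14 ± 0.70 (adjusted p = 0.263) and no overlap.

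The change from day 0 to day 11 was itself compared between lines. Apoc2 rose more in 4F than in R1 by 2.50 ± 0.44 (adjusted p = 0.000757) and than in 3F by 2.71 ± 0.44 (0.000477). Apob changed more in 4F than in R1 by 2.10 ± 0.46 (0.00419), and Amn by 1.70 ± 0.52 (0.0307). Thus 3 of 9 genes passed against R1, where 2.47% of all genes were higher, and 1 of 9 against 3F (3.41%). For Cubn the difference in change was 0.36 ± 0.65 against R1 and 0.87 ± 0.65 against 3F, and neither passed. Between 3F and R1, 0 of 9 changes differed in limma (1.5% of all genes did), 1 had an unadjusted p under 0.05 (20.8% of all genes), and Rbp4 was at 1.37 ± 0.65 (adjusted p = 0.236). With the RNA index as a covariate, 0 of 9 passed between 4F and R1, where 246 of all 18193 genes did. Between 4F and 3F Apoc2 then passed (1.79), and so did the smaller rises of Afp (-2.62) and Rbp4 (-2.72). In that comparison 1094 of all genes passed in either direction.

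Arrays of a group differed most at day 11 in R1 and 3F. The median SD of the 9 genes was then 1.09 in R1 and 0.86 in 3F, against 0.20 in 4F and 0.10 to 0.34 in the other 6 groups. In R1 at day 11, replicate 1 was the highest array for 9 of 9 genes and replicate 3 the lowest for 7. In 3F at day 11, replicate 3 was the lowest for 8 of 9 genes, and Cubn was the exception. On the RNA index, R1 replicate 1 was also the highest of its group (2.16) and 3F replicate 3 the lowest of its group (1.31). These arrays enter the slope of the index where it is a covariate. In 4F at day 11 the SD ran from 0.09 for Apoa4 to 1.01 for Cubn, and it was 0.12 for Afp and 0.46 for Apoc2.

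Several genes were read by more than 1 probe set. Afp had 5, of which the 3 brightest rose together: the others of these changed by 7.84 to 8.93 in R1, 7.45 to 8.73 in 3F and 6.79 to 8.07 in 4F from day 0 to day 11, more than the brightest did. In 4F 1416645_a_at read 4.00, 3.88 and 4.41 at day 0 and 6.25, 7.13 and 8.22 at day 5. On these days in 4F 1436879_x_at read 4.16, 3.89 and 4.47, then 5.20, 5.43 and 6.48. At both, the day 5 arrays of 4F also lay above those of 3F (4.29 to 4.51 and 3.89 to 4.10). At day 11 the mean of 1416645_a_at was 12.16 in 4F, 12.95 in R1 and 12.82 in 3F. That of 1436879_x_at was 10.96, 11.66 and 11.47. The 4F arrays overlapped those of R1 and of 3F at both, and the differences between these means were under 2-fold. The other pair of Afp probe sets were the dimmest on average, with changes of -0.09, 0.74 and -0.02 for 1436880_at and 0.81, 2.31 and 0.65 for 1436881_x_at. Between day 0 and day 5 in 4F the arrays overlapped at 1436880_at and did not at 1436881_x_at. In 3F at day 11 the arrays read 6.73, 5.69 and 5.32 at 1436880_at and 9.20, 5.36 and 5.00 at 1436881_x_at. Replicate 1 was the highest at both, and these values also enter the mean of all Afp probe sets. The 4 Ttr probe sets moved together, and 1451580_a_at spanned less (1.80, 2.35 and 1.95). The 4 Apoa1 probe sets changed in 1 direction, by 1.37 to 2.03 in R1, 1.59 to 2.46 in 3F and 1.63 to 2.46 in 4F for the others. For Apob the second probe set, 1457554_at, stayed flat (-0.03, -0.07 and -0.23), so the Apob results rest on 1455593_at alone. The second Cubn probe set, 1426990_at, changed by 0.54, 0.20 and 0.95, in the same order of lines as the first. At day 5 it read 5.02, 5.46 and 4.54 in 4F and 4.51, 4.72 and 4.45 in 3F, with overlap. At day 11 it read 5.33 to 7.04 in 4F, 4.42 to 5.62 in R1 and 4.60 to 5.25 in 3F.

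Other genes of these pathways were taken from lists. Of 15 measured genes of lipoprotein assembly and uptake, 6 rose and 2 fell in R1 from day 0 to day 11, 7 rose and 1 fell in 3F, and 4 rose and 1 fell in 4F, with median changes of 0.30, 0.51 and 0.51. Mttp, which loads lipid onto apolipoprotein B, rose in all 3 lines, by 1.40 in R1, 1.33 in 3F and 1.36 in 4F. Dab2, an adaptor of endocytosis that works with megalin and cubilin, rose by 3.16, 2.16 and 1.28. Vldlr, a lipoprotein receptor, rose by 2.51, 2.22 and 2.83, and Tfrc, the receptor of transferrin, fell by 1.72, 1.62 and 1.78. Lrp2 encodes megalin, the large receptor that works beside cubilin: it fell in R1 by 1.07, was at -0.87 in 3F and 0.30 in 4F, and at day 11 was higher in 4F than in R1 by 1.04 and than in 3F by 1.19. Its log2 signal at day 11 was 6.14 to 6.64 in 4F, 5.09 to 5.79 in R1 and 4.99 to 5.40 in 3F. Among the 15 genes Lrp2 alone was higher in 4F at day 11 in both comparisons, and Scarb1, a receptor of high density lipoprotein, was lower in both, by 1.14 and 1.01.

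Of 12 measured genes of retinoid handling, 4 rose and 0 fell in R1, 2 rose and 2 fell in 3F and 4 rose and 2 fell in 4F. The retinoic acid receptor gene Rarb rose by 4.31 in R1, 4.16 in 3F and 3.32 in 4F, and Rdh10, an enzyme that turns retinol towards retinoic acid, by 2.03, 1.84 and 2.0. Stra6, which encodes a membrane receptor of the retinol-binding protein, was at 0.04, -0.10 and -0.27. Crabp2, a carrier of retinoic acid inside cells, rose by 1.74 in 4F, was at -0.50 in R1 and fell by 1.44 in 3F. Of 21 other plasma protein and apolipoprotein genes, 4 rose and 2 fell in R1, 3 rose and 1 fell in 3F and 1 rose and 1 fell in 4F. Hpx, which encodes the heme carrier hemopexin, rose in all 3 lines, by 1.90, 2.43 and 1.13. Vtn, the vitronectin gene, rose by 1.19 in R1 and 1.41 in 3F and was at -0.14 in 4F. Of these 21 genes, 0 were higher and 3 lower in 4F than in R1 at day 11, and 0 and 3 against 3F.

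Transcription factors of visceral endoderm were measured at 13 genes. From day 0 to day 11, 7 rose and 3 fell in R1, 8 rose and 3 fell in 3F and 5 rose and 3 fell in 4F, with median changes of 1.01, 1.24 and 0.71. From day 0 to day 5, when Ttr rose in each line, 8 of these factors rose and 1 fell in R1. In 3F 6 rose and 2 fell and in 4F 1 rose and 1 fell, with medians of 1.56, 1.38 and 0.38. From day 5 to day 11, when Afp and Rbp4 rose in each line, 2 of these factors rose and 6 fell in R1, 2 rose and 4 fell in 3F and 4 rose and 3 fell in 4F. Of all 18193 genes, 1292 rose and 825 fell in R1 in that interval, 1120 and 1957 in 3F, and 1212 and 1666 in 4F. Gata6 rose by 5.11 in R1, 4.73 in 3F and 3.07 in 4F, Sox17 by 4.65, 4.32 and 2.91, and Foxa1 by 1.74, 2.42 and 1.46. Hnf4a, a nuclear receptor needed for the plasma protein genes of visceral endoderm, rose by 1.05 in 3F and was at 0.67 in R1 and 0.71 in 4F. Several of these factors also act in heart, gut or the epiblast, and Otx2, Eomes and Nr5a2, which are active in pluripotent or early cells, were the 3 that fell in each line. Of 18 other genes expressed in visceral endoderm, 7 rose and 6 fell in R1, 4 rose and 5 fell in 3F and 7 rose and 3 fell in 4F from day 0 to day 11. From day 0 to day 5, 7 rose and 4 fell in R1, 7 rose and 5 fell in 3F and 5 rose and 2 fell in 4F. From day 5 to day 11, 1 rose and 7 fell in R1 and in 3F, and 8 rose and 4 fell in 4F. Spink1, a secreted protease inhibitor, was higher in 4F than in R1 by 1.60 and than in 3F by 1.54 at day 11, after a fall from day 0 by 2.04 in R1 and 1.64 in 3F.

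Several of the genes sit in clusters with genes of related proteins. Afp on chromosome 5 lies between Alb, the albumin gene, and Afm, the afamin gene. Alb rose from day 0 to day 11 by 1.28 in R1 and was at 0.14 in 3F and -0.12 in 4F. At day 11 Alb was lower than in R1 by 1.17 in 3F and by 1.54 in 4F, and its log2 signal was 5.63 to 6.63 in R1 and 4.51 to 5.24 in the others. Afm was at 0.16, 0.79 and 0.06. On chromosome 7 Apoc2 is followed by Apoc4, Apoc1 and Apoe: while Apoc2 rose in 4F, Apoe fell in all 3 lines, by 1.39 in R1, 1.23 in 3F and 1.61 in 4F, Apoc1 fell by 1.10 in R1 and was at -0.61 in 3F and -0.21 in 4F, and Apoc4 was at -0.21, -0.30 and -0.33. On chromosome 9 Apoa1 is followed by Apoc3, Apoa4 and Apoa5: Apoc3 was at -0.04, 0.30 and -0.10 and Apoa5 at -0.09, 0.36 and -0.13, and neither passed in any line.

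**Figure D4:**
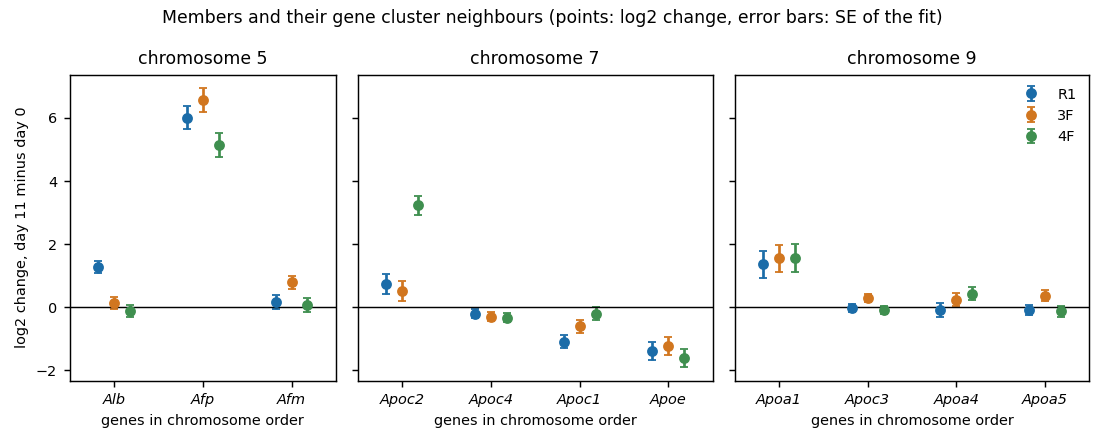
Log2 change from day 0 to day 11 (vertical axis) of genes in chromosome order (horizontal axis, not to scale) in 3 gene clusters, for R1, 3F and 4F, with standard errors from limma. Afp, Apoc2 in 4F and Apoa1 stand above their neighbours, and Apoe fell in all 3 lines.

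Markers of other tissues that use these genes were set beside the results. Of 12 hepatocyte genes, 1 rose in R1 and in 3F (Tdo2) and 0 in 4F, where Hal fell, and the mean log2 signal of the list at day 11 was 4.74 to 4.98 in R1, 4.88 to 5.29 in 3F and 4.61 to 4.68 in 4F. Cyp3a11 stayed between 3.57 and 4.07 in all 27 arrays. Of 7 kidney proximal tubule genes and 8 intestine genes, 0 passed from day 0 to day 11 in limma in any line. At unadjusted p values under 0.05 there were 1, 3 and 1 kidney genes and 0, 3 and 1 intestine genes in R1, 3F and 4F. Of 9 choroid plexus genes, Clic6 rose and 2 fell in R1 and in 3F, and 0 rose and 1 fell in 4F, with Kl at -0.02, 0.01 and -0.18. Fibroblast and feeder genes, 14 in all, had a mean signal of 8.93 to 11.29 in the day 0 arrays, 6.04 to 7.80 at day 5, and 10.67 to 11.36 in R1, 10.69 to 11.40 in 3F and 8.71 to 10.04 in 4F at day 11. Pluripotency genes, 12 in all, had a mean signal of 6.80 to 7.89 in R1, 6.61 to 7.08 in 3F and 9.64 to 10.38 in 4F at day 11, and 10 of 12 were higher in 4F than in R1. Of 14 fibroblast and feeder genes, 8 were lower in 4F than in R1 and 10 lower than in 3F, and of 9 macrophage genes, 6 and 1. Of 12 genes of parietal endoderm, the other extraembryonic endoderm, 7 rose and 2 fell in R1 from day 0 to day 11, 5 rose and 2 fell in 3F and 5 rose and 1 fell in 4F, and 2 were lower in 4F than in each other line at day 11. Of 9 erythroid genes, 4, 5 and 2 rose and 0 fell, and 1 was lower in 4F than in R1 and 5 lower than in 3F. Of 12 genes of definitive endoderm and gut, 3 rose and 2 fell in R1, 2 rose and 2 fell in 3F and 3 rose and 2 fell in 4F, and 2 were higher in 4F than in each other line. The part of these cells in the differences between lines was not tested.

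The 9 genes did not all follow 1 course. Over the 9 group means, Pearson's r between 2 of the genes ran from -0.19 to 0.98 over 36 pairs, with a median of 0.67, and 32 pairs were above 0. These points share 3 lines and 3 days and are a description only. In the order of group means 4F at day 11 came first for Ttr, Apob, Apoc2, Apoa1, Apoa4, Amn and Cubn, and for Apob and Apoc2 its arrays lay above those of every other group. At Cubn and Apoa4 its range overlapped that of R1 at day 11, among others. For Afp and Rbp4 3F at day 11 came first, and the 3 day 11 groups overlapped in order and stood clear of all others. For Amn every neighbour in the order overlapped, from 4F on all 3 days at the top to 3F on all 3 days at the bottom. The mean of the 9 genes, each standardised over the 27 arrays, was 1.57 in 4F, 0.54 in 3F and 0.45 in R1 at day 11, and -0.74 to 0.03 in the other groups. Among 9060 other genes whose group means spanned at least 1 log2 unit, the 8 with the highest r to this mean over the 9 groups were Gm33409 (0.98), Skida1 (0.97), Ifnz (0.96), S100g (0.96), Sat2 (0.96), Snhg10 (0.95), Heg1 (0.95) and Marf1 (0.95). Over the 27 single arrays their r was 0.69 to 0.89. Skida1 rose in all 3 lines, by 2.15 in R1, 2.50 in 3F and 2.98 in 4F, and Heg1 rose by 2.58 in 4F and was at 0.89 in R1 and 0.97 in 3F.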

How the data were processed

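Total RNA of 27 samples was measured on Affymetrix mouse arrays. Per the submitters' processing notes, RMA gave the deposited log2 signals; its version is not given in the sources used here. They ran from 3.00 to 15.67 and were used as they stood, and no arrays were identical. Background correction and slide could not be varied from these values. Symbols came from the array annotation: of 45101 probe sets, 34945 had 1 symbol, 932 several, 9160 none and 64 were controls. The symbols of all 22 probe sets of the genes described matched the RefSeq table by gene identifier. A gene took the values of its brightest probe set on average (18193 genes), and all probe sets of the genes described are given.

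The limma package (3.58.1, under R 4.3.3; empirical Bayes) fitted a mean for each group to the 27 arrays and gave 18 comparisons of 2 groups and 3 of the change from day 0 to day 11. Benjamini-Hochberg adjustment ran over all genes in each comparison. The threshold was 2-fold together with an adjusted p under 0.05. The fit was tested on simulated data. The labels call the replicates biological and say no more, so p values measure the spread between these samples. Arrays with the same replicate number deviated together, with all 3 correlations over 0.1, in 3 of 18 comparisons (the day 0 pair 4F and R1, the day 11 pair 3F and R1, and 4F between its last days). No label states a pairing, so the replicate block was run as an alternative.

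The genes, the lists and the rules were chosen with earlier results of these data known. Up to 4 genes of a list were named by the size of their changes, and others for their role, after their values were seen. Figures were made with matplotlib 3.10.9 in Python 3.11.15.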

Additional observations from a re-analysis of the deposited data

Results flagged for a closer look

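The change from day 0 to day 11 differed between lines at 3 genes, in tests of the difference itself. Apoc2 rose more in 4F than in R1 by 2.50 ± 0.44 (log2, SE; limma adjusted p = 0.000757) and more than in 3F by 2.71 ± 0.44 (0.000477). All 3 arrays of 4F at day 11 stood above all arrays of the other lines. Apob changed more in 4F than in R1 by 2.10 ± 0.46 (0.00419), on 1 of its 2 probe sets. Amn changed more in 4F than in R1 by 1.70 ± 0.52 (0.0307), with 2 of 3 R1 arrays at day 11 below every R1 array at day 0, and this call was lost without any single one of 8 of the 12 arrays compared and with the RNA index as a covariate (0.48). With that covariate Apob was at 1.14 and Apoc2 at 1.61 against R1, and neither passed.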

How the results depend on the processing

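The array number and, for dim genes such as Apoa4, signals near the lower end limit these results. Of 231 counts of genes past the threshold under other settings, 205 stayed within 1.5 times. The replicate block changed no count and no call (5, 5 and 7 genes from day 0 to day 11 in R1, 3F and 4F). With the RNA index as a covariate the count fell from 7 to 3 in 4F from day 0 to day 11 (Apoa1 turned to -0.14), to 2 from day 5 to day 11 and to 1 from day 0 to day 5. It was 0 for 3F against R1 at day 0, 2 for 4F against 3F at day 5, 1 for 3F against R1 and for 4F against 3F at day 11, and in the change from day 0 to day 11 0 for 4F against R1 and 3 for 4F against 3F. With only the arrays compared it was 3 for R1 from day 0 to day 11 and for 4F against R1 and 3F at day 11, 1 for 4F against R1 and 2 for 4F against 3F at day 0. Array weights gave 1 for 4F against R1 and 2 for 4F against 3F at day 0, 1 for 3F against R1 and 3 for 4F against R1 at day 5, and 2 for the change in 4F against 3F. For 4F against 3F at day 5 median centring and quantile normalization gave 2, and for 3F from day 0 to day 5 cyclic loess, quantile normalization, the mean of probe sets and all probe sets gave 1. The mean of probe sets gave 3 for 4F against 3F at day 11. The cause of these moves was not tested. Where only the arrays compared were fitted, the number of arrays and the estimate of the spread changed together.

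Leaving out single arrays gave 1 to 2 genes for R1 and for 4F and 1 for 3F from day 0 to day 5, 4 to 5 for R1 and for 3F and 6 to 7 for 4F from day 0 to day 11, and 2 to 4, 5 to 6 and 5 to 7 from day 5 to day 11. It gave 0 to 1 for 3F against R1 and 4F against 3F and 0 for 4F against R1 at day 0, 0, 1 to 3 and 1 to 3 for 3F against R1, 4F against R1 and 4F against 3F at day 5, and 0 to 2, 4 to 5 and 4 to 5 at day 11. For the changes it gave 0 to 2 (3F against R1), 2 to 3 (4F against R1) and 1 to 3 (4F against 3F). The falls of Amn in R1 did not pass without day 0 replicate 2 (-1.03 at day 5, -1.01 at day 11), without day 5 replicate 3 (-0.88) and without day 11 replicate 2 (-0.90) or 3 (-0.84), nor that to day 11 with array weights (-0.93) or with only the arrays compared (-1.15, adjusted p = 0.0697). Among all genes, the number called moved by over 1.5 times in some comparisons. With the RNA index it went from 562 to 193 for 3F against R1 at day 0 and from 1824 to 1105 for 4F against 3F at day 11, and for the changes from 272 to 728 (3F against R1) and from 1728 to 246 (4F against R1). With only the arrays compared it went from 204 to 134 (4F against R1 at day 0), 185 to 10 (3F against R1 at day 11), 1824 to 840 (4F against 3F at day 11) and 272 to 80 (the change in 3F against R1). Array weights gave 1158, 404 and 615 at day 0 (from 562, 204 and 360), 220 for 3F against R1 at day 5 (from 68), and 778 and 2606 for the changes in 3F and 4F against R1. The mean of probe sets gave 331 for 3F against R1 at day 0 and 44 at day 5, and quantile normalization 161 for the change in 3F against R1. The rises of Afp, Ttr and Rbp4 from day 0 to day 11 passed under all 17 alternatives in each line except for Rbp4 in 4F with the RNA index. Cyclic loess moved the share of rises among all genes called from day 0 to day 11 from 48.4% to 59.2% in R1, from 32.0% to 52.0% in 3F and from 32.3% to 55.2% in 4F.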
